A study of Mus musculus with 6 samples.

Results

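DNA repair and damage checkpoint genes were examined in mammary tumours of mice, as 36 genes among 750 tumour-related genes measured in each tumour. The genes were taken by name from a list of 37, and Mre11a, the remaining one, was not analysed here. Each tumour arose in a female mouse from 300000 implanted cells of 4T1, a murine line of mammary carcinoma, placed in the fat pad of the left mammary gland. Mice were treated from 2 weeks after implantation. The groups were 3 tumours of mice given TTFM, extracts of a Thai traditional formulary medicine, and 3 tumours of mice labelled saline. All 6 tumours carry the same implanted cell line. The sources used here do not give the mouse strain, the age, the make-up of the extracts, the dose or the length of treatment, and nothing states that each sample came from a separate mouse. The p-values therefore measure the spread between these samples, which may be technical in part.

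Cells meet broken or altered DNA with sensor kinases that stop the cell cycle and with repair pathways that differ by lesion. Atm and Atr signal breaks and stalled replication forks to Chek1 and Chek2. Homologous recombination copies the intact sister chromatid, end joining ligates the broken ends, the Fanconi anaemia proteins release cross-linked strands, and excision and mismatch repair replace damaged or mispaired bases. Several of these genes, Chek1, Brca1 and Pole2 among them, are known to be transcribed mainly in replicating cells. In bulk tissue, fewer cells of a type and less RNA per cell cannot be told apart.

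Totals ran from 333515 to 449460 counts in TTFM tumours and from 400274 to 422841 in saline tumours, with the lowest in TTFM tumour 3. A principal component analysis of all tested genes, whose first axis took up 56.8% of the variance, did not separate the groups: TTFM tumours 1 and 2 and saline tumour 2 lay at 7.46, 8.91 and 9.92, and TTFM tumour 3 and saline tumours 1 and 3 at -3.08, -9.57 and -13.7. Of 13 epithelial markers, 3 were in the table, among them Cdh1, which encodes E-cadherin and had 1697, 1744 and 1082 normalized counts in TTFM tumours 1 to 3, against 1032, 1334 and 1662 in saline tumours 1 to 3. Uty, a Y-linked gene in these female tumours, had 4 to 12 counts and marks the bottom of the range.

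No repair or checkpoint gene was shown to differ between TTFM and saline tumours. Of the 36 genes, 35 reached the filter, a mean count of 10, and were tested within a fit over all 627 such genes, by edgeR's quasi-likelihood test with Benjamini-Hochberg adjustment. None of the 35 passed an adjusted p of 0.05, and 0.0% of all tested genes did. DESeq2's test and limma with trend also called 0 of the 35. At an unadjusted p under 0.05 there were 0 members as well, against 38 of all tested genes (6.06%). The smallest adjusted p of a member was 0.905, for Fancl. All 35 fold changes (TTFM over saline) lay within 1.5-fold either way, from -0.44 for Ercc6 to 0.52 for Ddb2 on the log2 scale, with a median of 0.16, against -0.0014 over all tested genes. Positive values numbered 23 and negative ones 12, where 49.9% of all tested genes were positive.

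In normalized counts the groups did not overlap in 3 of the 35 genes, Atm, Fanca and Ddb2, each higher in every TTFM tumour. For Atm and Fanca this depended on the TMM factors. As a share of the total, Atm was lower in TTFM tumour 2 (119 of 449460 counts) than in saline tumour 1 (112 of 400274). Fanca was lower in TTFM tumour 1 (36 of 426190) than in saline tumour 3 (40 of 422841). Over all tested genes the groups did not overlap in 52 (8.29%), of which 25 (3.99%) were higher and 27 (4.31%) lower in TTFM. A count of 3 of 35 is near the panel's share in either direction and above its share higher in TTFM. This difference in shares was not tested. For 19 of the 35 genes the 95% interval of the fold change lay within 2-fold either way, in some only just, as for Fancc with an upper end of 0.995 (log2). For the other 16 a 2-fold difference lay inside the interval. None of the 35 intervals is adjusted for the number of genes, and all take the samples as independent. The half-width of the interval ran from 0.44 to 1.32 on the log2 scale.

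**Figure D1:**
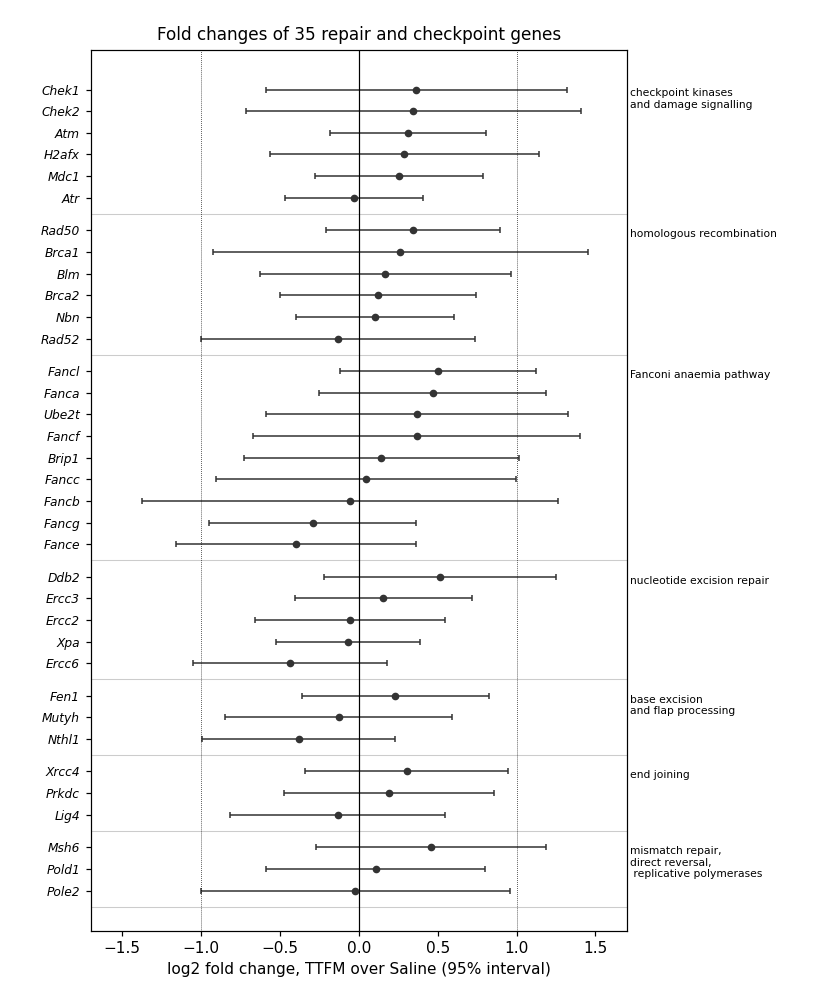
Log2 fold changes of the 35 tested repair and checkpoint genes (x axis, TTFM over saline), grouped by sub-pathway down the page. Points are edgeR estimates over 3 TTFM and 3 saline tumours, bars are 95% intervals and dotted lines mark 2-fold. Every interval includes 0.

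Among the checkpoint kinases and damage signalling genes, 5 of 6 fold changes were positive and none passed the test (median 0.30). Atm, the kinase that responds to chromosome breaks, had 127, 119 and 153 normalized counts in TTFM tumours 1 to 3, against 108, 109 and 105 in saline tumours 1 to 3. The TTFM tumours all lay above the saline tumours on this scaling, and the saline values were close together (133 ± 17.9 in TTFM and 107 ± 2.27 in saline tumours (SD, n = 3 each); log2 fold change 0.31, 95% interval -0.18 to 0.80; adjusted p = 0.938 in edgeR's test). Its raw counts were 129, 119 and 138 in TTFM and 112, 96 and 122 in saline tumours. Counting alone gives a coefficient of variation of 9.15% at this level, more than the spread of the normalized saline values. Atr, the kinase of stalled forks, had 260.2, 269 and 253 normalized counts in TTFM tumours 1 to 3, against 304, 235 and 260.2 in saline tumours 1 to 3, and the groups overlapped (log2 fold change -0.032, 95% interval -0.47 to 0.41). Chek1, the effector kinase downstream of Atr, had 243, 303 and 99.9 normalized counts in TTFM tumours 1 to 3, against 138, 224 and 141 in saline tumours 1 to 3. Its lowest and its highest value were both in TTFM tumours, in tumours 3 and 2 (log2 fold change 0.36, 95% interval -0.59 to 1.32). Chek2, the effector kinase downstream of Atm, had 48.1, 45.1 and 21.1 normalized counts in TTFM tumours 1 to 3, against 35.6, 38.7 and 16.3 in saline tumours 1 to 3. One tumour of each group, TTFM 3 and saline 3, was low, and the others lay above 35 normalized counts (log2 fold change 0.35, 95% interval -0.72 to 1.41). Mdc1, a scaffold that holds damage proteins at breaks, had 129.6, 137 and 145 normalized counts in TTFM tumours 1 to 3, against 143, 98.9 and 104 in saline tumours 1 to 3, with saline tumour 1 inside the range of the TTFM values (log2 fold change 0.25, 95% interval -0.28 to 0.79). H2afx, the histone variant H2AX that is phosphorylated around breaks, ranged from 521 to 714 normalized counts in TTFM and from 310.0 to 832 in saline tumours (log2 fold change 0.29, 95% interval -0.56 to 1.14).

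Homologous recombination genes had 5 of 6 positive fold changes, none past the test, and a median of 0.14. Brca1, which directs breaks into recombination, had 95.2, 105 and 38.9 normalized counts in TTFM tumours 1 to 3, against 35.6, 109 and 55.8 in saline tumours 1 to 3. TTFM tumours 1 and 2 and saline tumour 2 were high and the other 3 tumours low, so that the spread within each group exceeded the difference between them (79.8 ± 35.8 in TTFM and 66.9 ± 38.00 in saline tumours (SD, n = 3 each); log2 fold change 0.26, 95% interval -0.93 to 1.45). Brca2, which loads the recombinase onto single-stranded DNA, had 150.2, 176 and 109.9 normalized counts in TTFM tumours 1 to 3, against 127, 166 and 109 in saline tumours 1 to 3, with the same 3 tumours highest (log2 fold change 0.12, 95% interval -0.50 to 0.74). Blm, the helicase that dissolves joined DNA molecules, stood at 0.17. Rad50, a subunit of the complex that senses and trims breaks, had 209, 241 and 339 normalized counts in TTFM tumours 1 to 3, against 217, 224 and 181 in saline tumours 1 to 3. It was highest in TTFM tumour 3, a tumour in which Brca1 was low (log2 fold change 0.34, 95% interval -0.21 to 0.90). Its partner in that complex, Nbn, varied least of all the tested members, from 97.2 to 111 normalized counts in TTFM and from 92.4 to 102 in saline tumours (log2 fold change 0.10). Rad52, which anneals single strands, stood at -0.13 and was highest in saline tumour 3.

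**Figure D2:**
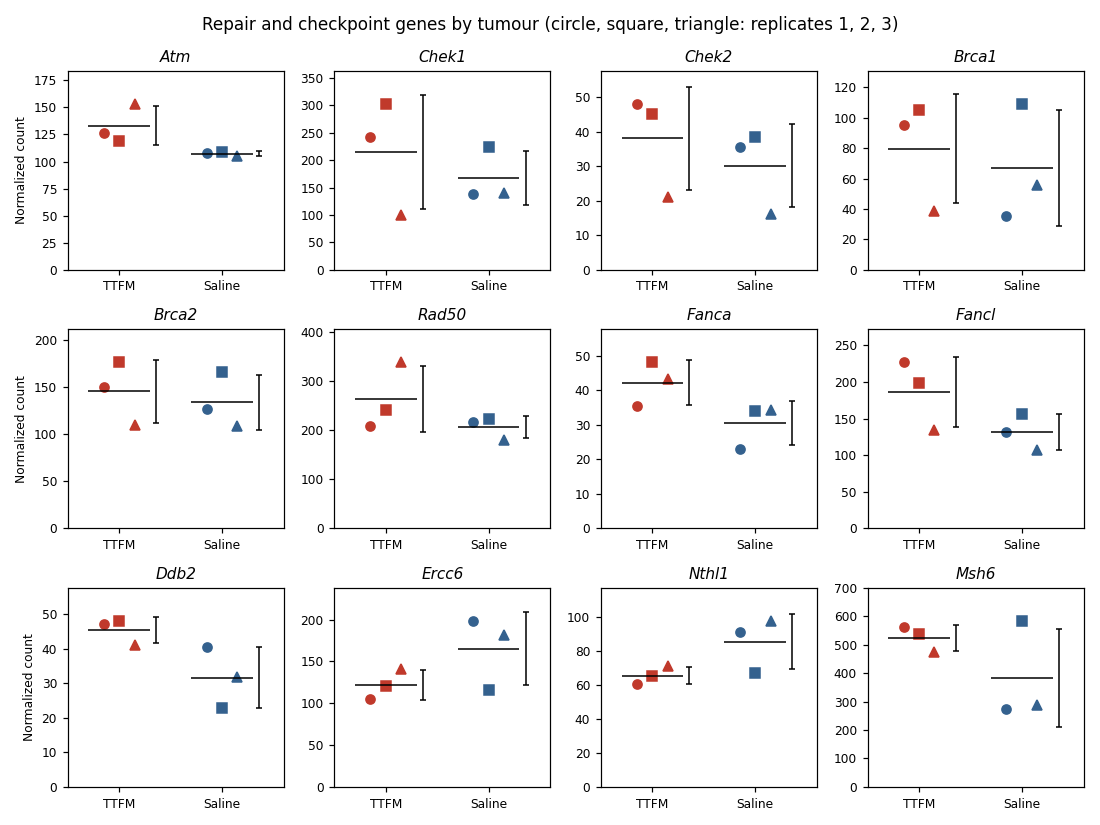
Normalized counts (y axis, from 0) of 12 repair and checkpoint genes in TTFM tumours (left, red) and saline tumours (right, blue). Circles, squares and triangles are replicates 1, 2 and 3, horizontal lines are group means and bars are SD (n = 3). On this scaling Atm, Fanca and Ddb2 do not overlap between groups, and in Brca1, Brca2 and Msh6 saline tumour 2 lies with the higher TTFM values.

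In the Fanconi anaemia pathway 6 of 9 fold changes were positive, none passed the test, and the median was 0.14. Fancl, the ubiquitin ligase subunit of the core complex, had 227, 198 and 134 normalized counts in TTFM tumours 1 to 3, against 132, 157 and 107 in saline tumours 1 to 3. Saline tumour 2 lay above TTFM tumour 3, and the difference had the smallest p among the members (186 ± 47.4 in TTFM and 132 ± 24.8 in saline tumours (SD, n = 3 each); log2 fold change 0.50, 95% interval -0.12 to 1.12; adjusted p = 0.905 in edgeR's test). Fanca, a core complex subunit, had 35.3, 48.1 and 43.3 normalized counts in TTFM tumours 1 to 3, against 23.1, 34.1 and 34.3 in saline tumours 1 to 3, with no overlap although TTFM tumour 1 and saline tumour 3 were only 1 normalized count apart (log2 fold change 0.47, 95% interval -0.25 to 1.19; adjusted p = 0.938 in edgeR's test). Its raw counts were 36, 48 and 39 in TTFM and 24, 30 and 40 in saline tumours, at which counting alone gives a coefficient of variation of 16.6%. Ube2t, the ubiquitin-conjugating enzyme that works with Fancl, stood at 0.37 and the core subunit gene Fancf at 0.37. Brip1, a helicase that binds Brca1, stood at 0.14, and the core subunit gene Fancc at 0.045. On the negative side were the core subunit genes Fancg at -0.29, Fance at -0.40 and Fancb at -0.054. Fancb, singled out after its values were seen, had 8 counts in TTFM tumour 3, at the level of Uty, against 42 and 54 in TTFM tumours 1 and 2 and 31, 37 and 43 in saline tumours. It had the widest range of the tested members, 6.09-fold between the lowest and highest tumour.

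Nucleotide excision repair genes were divided, with 2 positive and 3 negative fold changes, none past the test, and a median of -0.056. Ddb2, which recognises ultraviolet lesions, had 47.1, 48.1 and 41.1 normalized counts in TTFM tumours 1 to 3, against 40.4, 22.7 and 31.8 in saline tumours 1 to 3. TTFM tumour 3 and saline tumour 1 were less than 1 normalized count apart, and saline tumour 2 was lowest (45.4 ± 3.80 in TTFM and 31.7 ± 8.85 in saline tumours (SD, n = 3 each); log2 fold change 0.52, 95% interval -0.22 to 1.25; adjusted p = 0.909 in edgeR's test). Ercc6, which couples repair to transcription, had 105, 120.2 and 141 normalized counts in TTFM tumours 1 to 3, against 198, 116 and 181 in saline tumours 1 to 3. Saline tumour 2 lay within the TTFM values and the other saline tumours lay above them (122 ± 18.03 in TTFM and 165 ± 43.5 in saline tumours (SD, n = 3 each); log2 fold change -0.44, 95% interval -1.05 to 0.18). The helicase genes Ercc3 and Ercc2 of the transcription factor TFIIH stood at 0.16 and -0.056, and Xpa, which checks the lesion, at -0.069.

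The base excision and flap processing genes had 1 positive and 2 negative values. Nthl1, a glycosylase that removes oxidised pyrimidines, had 60.9, 65.1 and 71.04 normalized counts in TTFM tumours 1 to 3, against 91.5, 67.1 and 97.9 in saline tumours 1 to 3, and saline tumour 2 lay among the TTFM values (log2 fold change -0.38, 95% interval -0.996 to 0.23). Fen1, which cuts the flaps left by repair and lagging-strand synthesis, had 251, 242 and 202 normalized counts in TTFM tumours 1 to 3, against 176, 265 and 153 in saline tumours 1 to 3, highest in saline tumour 2 and lowest in saline tumour 3 (log2 fold change 0.23, 95% interval -0.36 to 0.82). Mutyh, a glycosylase that removes adenine mispaired with oxidised guanine, stood at -0.13. Among the end joining genes, Xrcc4, the partner of the ligase, had 96.2, 111 and 74.4 normalized counts in TTFM tumours 1 to 3, against 60.7, 86.4 and 81.6 in saline tumours 1 to 3, with overlap (log2 fold change 0.30, 95% interval -0.34 to 0.95). Prkdc, the catalytic subunit of DNA-dependent protein kinase, had 72.7, 73.1 and 56.6 normalized counts in TTFM tumours 1 to 3, against 63.6, 45.5 and 67.8 in saline tumours 1 to 3, lowest in saline tumour 2 (log2 fold change 0.19, 95% interval -0.47 to 0.86), and the ligase gene Lig4 stood at -0.13. None of these 6 passed the test.

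Msh6, which recognises mispaired bases, had 563, 538 and 474 normalized counts in TTFM tumours 1 to 3, against 275, 583 and 289 in saline tumours 1 to 3. The 3 TTFM tumours and saline tumour 2 were high, and saline tumours 1 and 3 were lower (525 ± 45.7 in TTFM and 383 ± 174 in saline tumours (SD, n = 3 each); log2 fold change 0.46, 95% interval -0.27 to 1.19; adjusted p = 0.938 in edgeR's test). Pold1, the catalytic subunit of DNA polymerase delta, had 77.6, 51.1 and 47.7 normalized counts in TTFM tumours 1 to 3, against 53.9, 56.9 and 53.2 in saline tumours 1 to 3, and TTFM tumour 1 alone lay apart (log2 fold change 0.11, 95% interval -0.59 to 0.80). Pole2, a subunit of DNA polymerase epsilon, stood at -0.022 and ranged 2.65-fold across the tumours. Mgmt, which removes alkyl groups from guanine, was not tested: its 2 to 9 counts in TTFM and 4 to 13 in saline tumours were at the level of Uty, so that no difference was detectable at this depth.

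The most frequent order of the tumours in these genes did not follow the treatment groups. In 15 of the 35 tested genes (42.9%) the 3 highest tumours were TTFM 1, TTFM 2 and saline 2. This held for Chek1, Chek2, H2afx, Brca1, Brca2, Blm, Fancb, Fancf, Fancl, Brip1, Ube2t, Fen1, Xrcc4, Msh6 and Pole2. Over all tested genes the same 3 tumours were highest in 122 of 627 (19.5%), and among replication and S/G2/M genes in 14 of 24 (58.3%). In 6 members (17.1%), Fancc, Fance, Fancg, Ercc2, Ercc6 and Nthl1, the 3 highest were instead TTFM 3, saline 1 and saline 3, as in 128 of all tested genes (20.4%). By sub-pathway the first order was found in 5 of 9 Fanconi anaemia genes, 3 of 6 recombination genes, 3 of 6 checkpoint genes, 2 of 3 mismatch repair and polymerase genes, 1 of 3 base excision genes, 1 of 3 end joining genes and 0 of 5 nucleotide excision repair genes. These counts are descriptions of 6 tumours and were not tested, and the same split of tumours is that of the first principal component.

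**Figure D3:**
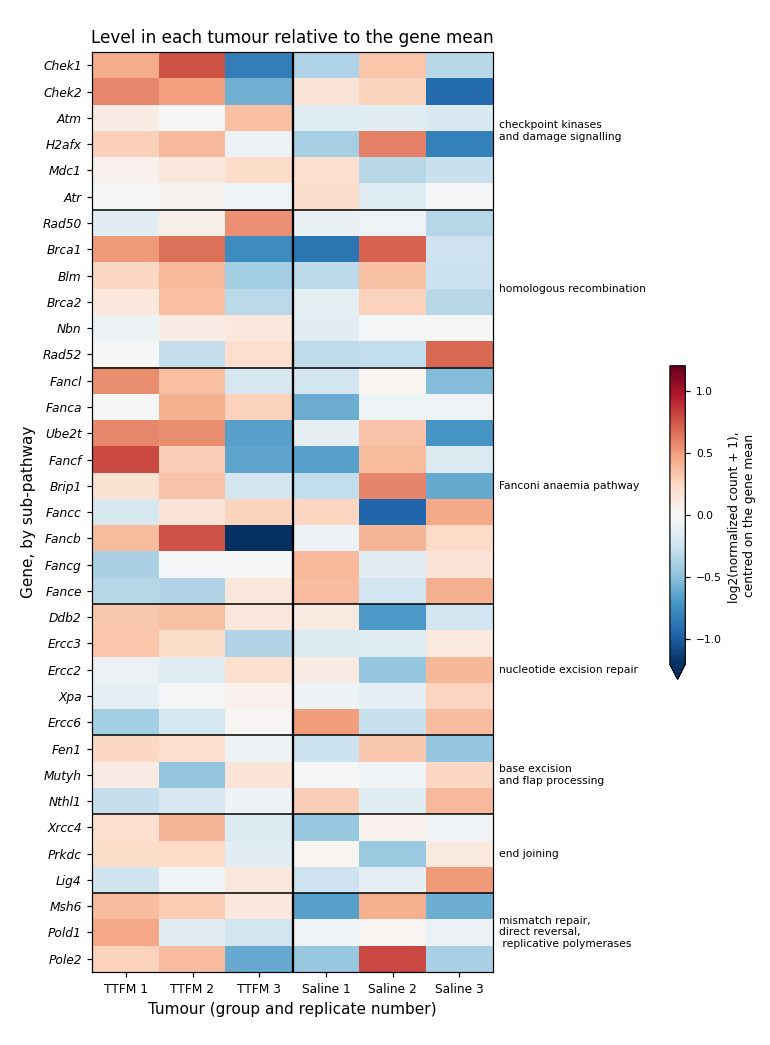
Level of each tested gene (rows, by sub-pathway) in each tumour (columns, TTFM left of the line and saline right of it), as log2(normalized count + 1) centred on the gene's mean over the 6 tumours. In 15 genes TTFM 1, TTFM 2 and saline 2 are the 3 highest tumours, and in some of these genes other tumours also lie above the mean. Fancb in TTFM tumour 3 lies beyond the end of the colour scale.

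Mean centred levels of the sub-pathways, on the scale of log2(normalized count + 1), had TTFM 1, TTFM 2 and saline 2 highest in 4 of 7 sub-pathways and not in nucleotide excision repair, base excision and end joining. The checkpoint genes had 0.24, 0.30 and -0.16 in TTFM tumours 1 to 3 and -0.058, 0.099 and -0.42 in saline tumours 1 to 3. The Fanconi anaemia genes had 0.17, 0.28 and -0.30 in TTFM tumours 1 to 3 and -0.10, 0.042 and -0.088 in saline tumours 1 to 3. In both, TTFM tumours 1 and 2 were the highest and TTFM tumour 3 lay among or below the saline tumours. The recombination genes had 0.11, 0.21 and -0.10 in TTFM tumours 1 to 3 and -0.31, 0.16 and -0.081 in saline tumours 1 to 3, with saline tumour 2 between the higher TTFM values. The nucleotide excision repair genes had 0.012, 0.041 and 0.0037 in TTFM tumours 1 to 3 and 0.096, -0.34 and 0.18 in saline tumours 1 to 3, where the TTFM tumours were alike and saline tumour 2 was lowest. The base excision genes had 0.023, -0.15 and 0.0098 in TTFM tumours 1 to 3 and 0.012, 0.049 and 0.060 in saline tumours 1 to 3, with saline tumour 3 highest and TTFM tumour 2 lowest. The end joining genes had 0.059, 0.20 and -0.056 in TTFM tumours 1 to 3 and -0.23, -0.17 and 0.20 in saline tumours 1 to 3, with TTFM tumour 2 and saline tumour 3 highest. The mismatch repair and polymerase genes had 0.37, 0.18 and -0.23 in TTFM tumours 1 to 3 and -0.39, 0.41 and -0.35 in saline tumours 1 to 3. The replication and S/G2/M genes had 0.43, 0.40 and -0.45 in TTFM tumours 1 to 3 and -0.23, 0.23 and -0.37 in saline tumours 1 to 3, with the same 3 tumours highest as in the checkpoint, recombination, Fanconi anaemia and mismatch repair genes.

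**Figure D4:**
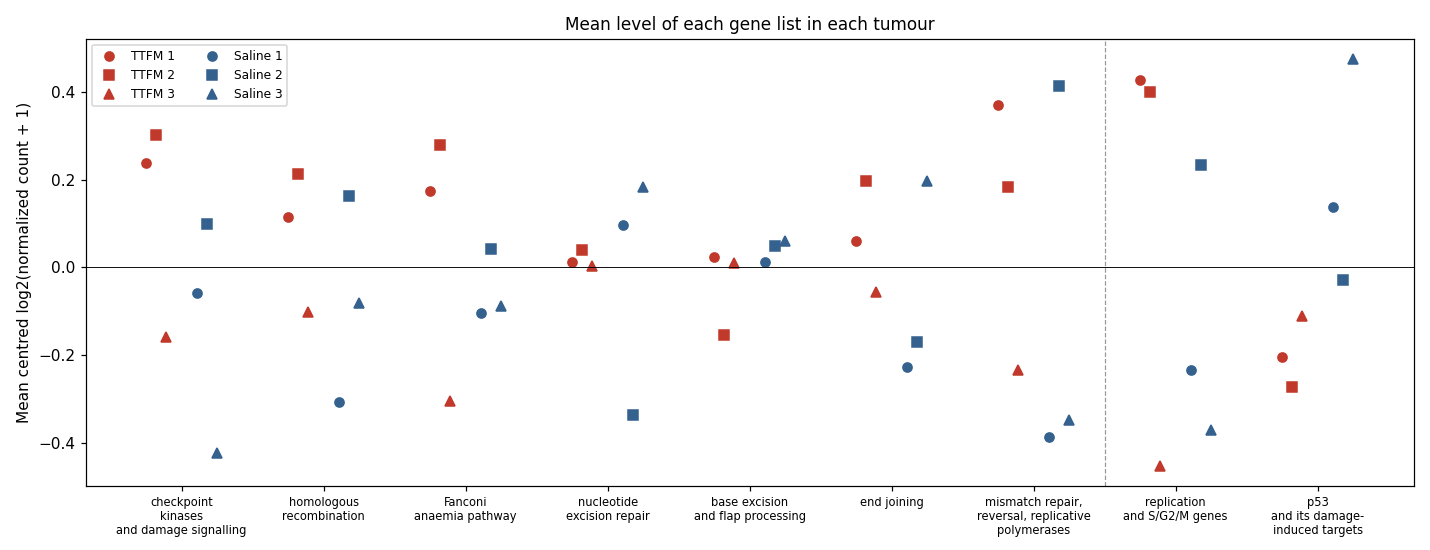
Mean over genes of centred log2(normalized count + 1) (y axis) in each tumour, for the 7 sub-pathways (left of the dashed line) and for the replication and p53 lists (right of it). Red symbols are TTFM and blue symbols saline tumours, with the replicate number given by the symbol. TTFM 1, TTFM 2 and saline 2 are the highest in the checkpoint, recombination, Fanconi anaemia, mismatch and polymerase, and replication lists.

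Promoter sequences are shown for 6 members to set the shared order of tumours beside the sequence at the gene start: Brca2, Chek2, Msh6 and Pole2, which had the common order and an E2F match, Ube2t, which had the order without one, and Ercc6, which had the opposite order. RefSeq windows of build GRCm38.p6, from 250 bases before to 50 after the start, were available for 30 of the 36 genes. They were searched on both strands for the E2F letters TTTCGCGC, TTTGGCGC, TTTCCCGC and TTTGCCGC, for the cell cycle element TTTGAA (CHR) and for the CCAAT box CCAAT. Capitals mark matches, none of which overlapped.
Brca2 (chr5:150522371-150522670, plus strand): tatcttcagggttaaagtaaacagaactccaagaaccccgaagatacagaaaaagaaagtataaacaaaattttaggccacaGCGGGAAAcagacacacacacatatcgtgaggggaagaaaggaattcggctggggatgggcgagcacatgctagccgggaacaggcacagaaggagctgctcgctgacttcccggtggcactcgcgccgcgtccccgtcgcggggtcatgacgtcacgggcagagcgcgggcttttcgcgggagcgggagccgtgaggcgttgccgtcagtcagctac
Chek2 (chr5:110839733-110840032, plus strand): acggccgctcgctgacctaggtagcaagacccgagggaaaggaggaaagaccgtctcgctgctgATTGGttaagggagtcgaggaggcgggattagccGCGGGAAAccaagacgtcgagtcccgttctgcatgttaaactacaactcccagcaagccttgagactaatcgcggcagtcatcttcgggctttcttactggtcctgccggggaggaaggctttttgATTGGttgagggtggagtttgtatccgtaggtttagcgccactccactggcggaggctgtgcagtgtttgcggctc
Msh6 (chr17:87974800-87975099, plus strand): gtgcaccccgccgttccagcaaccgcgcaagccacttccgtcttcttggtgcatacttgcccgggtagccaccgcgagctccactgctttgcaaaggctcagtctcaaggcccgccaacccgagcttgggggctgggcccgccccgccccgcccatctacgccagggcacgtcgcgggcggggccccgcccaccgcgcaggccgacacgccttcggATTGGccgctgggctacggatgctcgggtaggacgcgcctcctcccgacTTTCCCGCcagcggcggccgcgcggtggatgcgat
Pole2 (chr12:69228141-69228440, minus strand): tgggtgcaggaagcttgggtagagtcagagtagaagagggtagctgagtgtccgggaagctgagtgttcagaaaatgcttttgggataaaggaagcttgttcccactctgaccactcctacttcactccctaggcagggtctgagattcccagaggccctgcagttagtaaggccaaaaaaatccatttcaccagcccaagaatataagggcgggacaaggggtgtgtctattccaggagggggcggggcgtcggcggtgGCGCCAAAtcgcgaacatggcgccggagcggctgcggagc
Ube2t (chr1:134962315-134962614, plus strand): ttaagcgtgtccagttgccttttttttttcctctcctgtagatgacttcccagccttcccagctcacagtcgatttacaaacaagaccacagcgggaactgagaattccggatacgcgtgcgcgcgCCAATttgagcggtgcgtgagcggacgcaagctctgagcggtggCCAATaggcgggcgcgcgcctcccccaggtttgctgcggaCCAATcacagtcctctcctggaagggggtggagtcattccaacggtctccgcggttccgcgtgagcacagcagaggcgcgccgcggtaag
Ercc6 (chr14:32513271-32513570, plus strand): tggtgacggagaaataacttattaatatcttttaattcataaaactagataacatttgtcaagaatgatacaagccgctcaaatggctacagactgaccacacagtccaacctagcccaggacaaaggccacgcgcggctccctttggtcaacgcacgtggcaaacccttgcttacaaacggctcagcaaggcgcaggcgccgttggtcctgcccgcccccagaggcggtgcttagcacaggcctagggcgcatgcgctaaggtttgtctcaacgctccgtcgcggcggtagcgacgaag

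An E2F match was found in 8 of the 30 genes with a window (26.7%), against 36 of 558 panel genes (6.45%) and 704 of 27025 genes of the table (2.60%). The 8 were Brca2, Chek2, Msh6, Pole2, Fancg, Mdc1, Nthl1 and Pold1. Matches did not follow the order of tumours: 4 of 14 genes with the common order had one, and 4 of 15 tested genes without it. Fancg and Nthl1, whose windows are not shown, had an E2F match and the opposite order, the order of Ercc6. The CCAAT box was found in 17 of 30 members (56.7%), 42.5% of panel genes and 41.1% of all genes, with 3 boxes in Ube2t. The element TTTGAA was found in 1 of 30, in Fen1, against 14.9% of panel genes and 20.2% of all genes. These letters are a description of the windows, and no binding was measured.

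Other repair and checkpoint genes gave 7 positive and 8 negative fold changes among 15 tested, with none past the test (median -0.0096). Among the genes of smallest p were the cohesin gene Smc1a at 0.55, Xpc, which finds distorted DNA, at -0.56, and the histone methyltransferase gene Setd2 at -0.32. In the list named for p53 and its damage-induced targets, 8 of 10 fold changes were negative, with none past the test (median -0.36). The activity of p53 was not measured, either in the implanted cells or in other cells of the tumours. Cdkn1a, the p53-induced inhibitor of cyclin-dependent kinases, had 334, 336 and 246 normalized counts in TTFM tumours 1 to 3, against 439, 445 and 417 in saline tumours 1 to 3, with no overlap (log2 fold change -0.51, 95% interval -0.98 to -0.037; adjusted p = 0.719 in edgeR's test). Gadd45g and Gadd45b, stress-induced genes, stood at -1.07 and -1.50, and Sfn, an inhibitor of mitotic entry, at -0.40. The replication and S/G2/M genes had 20 of 24 positive fold changes, with none past the test (median 0.28), and the helicase gene Mcm7 had 817, 715 and 531 normalized counts in TTFM tumours 1 to 3, against 449.7, 457 and 460.2 in saline tumours 1 to 3 (log2 fold change 0.59, 95% interval 0.098 to 1.09; adjusted p = 0.662 in edgeR's test).

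Markers of other cells also varied between tumours, and their part in these values was not tested. The summed level of the 9 of 15 fibroblast and matrix markers in the table was 36298 to 51278 in TTFM and 32139 to 60722 in saline tumours, highest in saline tumour 2. Such a sum mostly follows the most abundant genes. The 8 tested markers ranged 10.0-fold across the tumours at the median. Their mean centred level was 0.16, 0.65 and 0.31 in TTFM tumours 1 to 3, against -0.60, 1.04 and -1.57 in saline tumours 1 to 3. The summed level of 3 of 10 granulocyte markers was 119 to 161 in TTFM and 248 to 627 in saline tumours, without overlap, and that of 2 of 9 macrophage markers 603 to 712 in TTFM and 656 to 1183 in saline tumours. That of 6 of 17 lymphocyte markers was 129 to 401 in TTFM and 150.2 to 155 in saline tumours, that of 2 of 9 endothelial markers 289.7 to 426 in TTFM and 338 to 383 in saline tumours and that of 3 of 13 epithelial markers 2162 to 2923 in TTFM and 1946 to 2586 in saline tumours. The summed level of the replication and S/G2/M genes was 4927 to 9459.6 in TTFM and 4284 to 7962 in saline tumours. Of these lists the granulocyte markers had the genes of smallest p, Il1r2 at -1.62 and Csf3r at -1.66. Of the 2 macrophage markers, Cd14 stood at -1.73 and Csf1r at 0.41, and both overlapped between the groups.

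Fold changes moved with single tumours. Without saline replicate 2, unadjusted p fell under 0.05 for Msh6, H2afx and Ercc6, where 18.8% of all tested genes did so, and the smallest adjusted p of a member was 0.0700 in edgeR's test. Without TTFM replicate 3 it did so for Chek1 and Fancl, where 11.1% of all tested genes did. With 1 tumour left out, the fold change of Msh6 was lowest at 0.30 (without saline replicate 1) and highest at 0.90 (without saline replicate 2). That of H2afx was lowest at 0.037 (without saline replicate 3) and highest at 0.81 (without saline replicate 2). That of Chek1 was lowest at 0.031 (without TTFM replicate 2) and highest at 0.72 (without TTFM replicate 3). That of Brca1 turned in sign, and was lowest at -0.015 (without saline replicate 1) and highest at 0.81 (without saline replicate 2). That of Ercc6 stayed negative, lowest at -0.63 (without saline replicate 2) and highest at -0.26 (without saline replicate 1). In all, 20 of the 35 genes kept their direction with each tumour left out. Atm (0.22 to 0.38), Fanca (0.33 to 0.58) and Ddb2 (0.34 to 0.76) are among the 20. At a fixed scaling, groups without overlap keep their sign whichever tumour is left out, so this adds little. Each of these fits did rescale the remaining tumours.

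**Figure D5:**
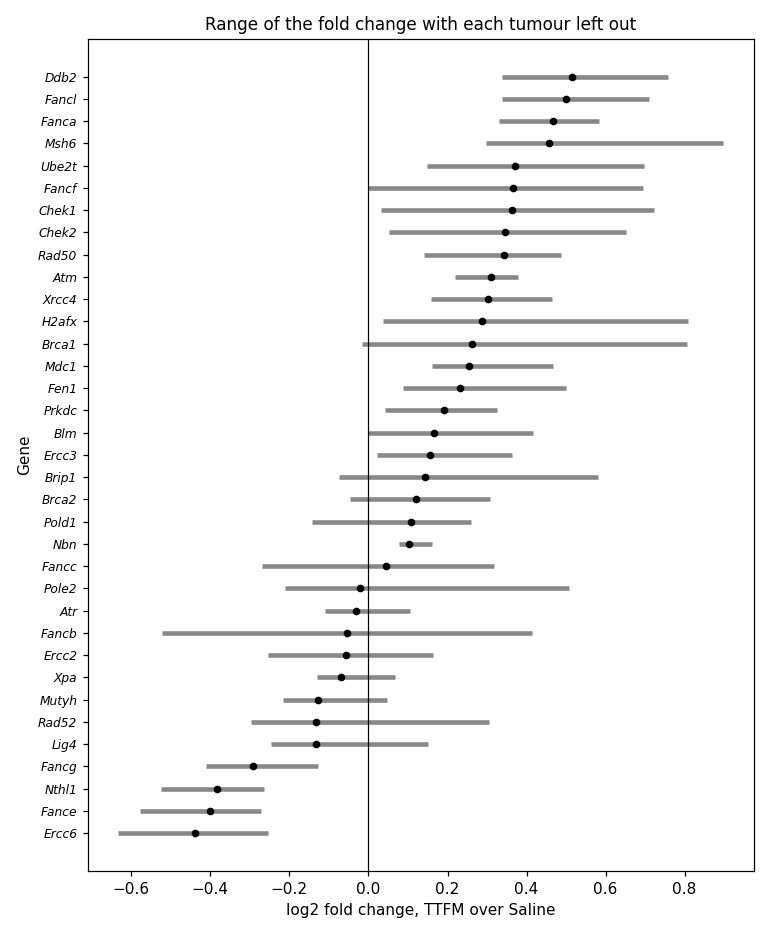
Log2 fold change (x axis, TTFM over saline) of each tested gene with all 6 tumours (points) and its range over the 6 fits that each leave out 1 tumour (bars). The bars of 15 genes cross 0, and those of Fancl and Msh6 lie above it.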

How the data were processed

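The authors deposited 1 table of 750 genes by 6 samples, whose values were read as counts per gene, from the values themselves: whole numbers with differing totals and a lowest value of 1. The sources used here do not give the platform, counting, background subtraction or any scaling. The 627 genes that averaged 10 counts or more were tested with edgeR 4.0.16 in R 4.3.3 (TMM factors, glmQLFit, glmQLFTest, group only), adjusted by Benjamini-Hochberg over all 627 at 0.05. The 95% intervals are edgeR's log2 fold change plus or minus a t quantile times a standard error. That error was computed as the absolute log2 fold change over the square root of the quasi-likelihood F statistic. Normalized counts are counts over effective library size (total times TMM factor), brought to the mean effective size. The fit was tested on simulated data for these genes, of which 39 of 98 changed 2-fold, 96 of 96 changed 4-fold and 4 of 431 unchanged genes were called. The simulation drew every gene independently with 1 common biological coefficient of variation, 33.4%, and without an order of tumours shared by genes. Its rates therefore need not hold for these tumours. Symbols follow the table, 35 members matched RefSeq symbols and H2afx a synonym (H2ax). Members and lists were chosen with earlier results of these data known. Values in every tumour are given for members without overlap, the 2 of smallest p per sub-pathway, Brca1, Brca2, Atm, Atr, Chek1 and Chek2, and at most 4 genes are named per other list, some of which are not reported here. Alternatives were other scalings (DESeq2 1.42.0 size factors, totals, upper quartile), filters, values raised to 20, a replicate block, the DESeq2 test, limma 3.58.1 with trend, and leaving out each tumour.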

Additional observations from a re-analysis of the deposited data

How the results depend on the processing

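The count of members past the threshold was 0 under every setting run. The count over all genes was 0, except 1 with the DESeq2 test and, leaving out single tumours, 0 to 14, where the 14 came without saline replicate 2. The median log2 fold change of the members ran from 0.047 to 0.31 with 1 tumour left out. By sub-pathway it ran from 0.12 to 0.45 for checkpoint, 0.0029 to 0.36 for recombination, 0.0088 to 0.55 for Fanconi anaemia, -0.13 to 0.16 for nucleotide excision, -0.22 to 0.047 for base excision, 0.043 to 0.32 for end joining and -0.13 to 0.51 for mismatch repair, reversal and polymerase genes. With 1 tumour left out 15 members turned in sign: Atr (-0.11 to 0.10), Brca1 (-0.015 to 0.81), Brca2 (-0.046 to 0.31), Blm (-0.0014 to 0.42), Rad52 (-0.30 to 0.31), Fancb (-0.52 to 0.41), Fancc (-0.27 to 0.32), Fancf (-0.00088 to 0.69), Brip1 (-0.075 to 0.58), Ercc2 (-0.25 to 0.16), Xpa (-0.13 to 0.067), Mutyh (-0.22 to 0.047), Lig4 (-0.25 to 0.15), Pold1 (-0.14 to 0.26), Pole2 (-0.21 to 0.51). Under the other settings 29 of 35 kept their direction. Those that turned all lay near 0. With no filter Atr stood at 0.035, Fancb at 0.0063, Ercc2 at 0.018, Xpa at 0.00018 and Pole2 at 0.029. Scaling to the total gave Fancc -0.037, values raised to 20 gave Fancb 0.085 and limma with trend gave Pole2 0.032. The cause was not tested. Nothing states that the replicate numbers mark pairs. Deviations from the group means correlated at -0.23, 0.44 and 0.26 for numbers 1, 2 and 3 across genes. TTFM tumour 3 correlated best with saline tumour 1 (0.39). With 3 samples per group, these correlations cannot decide whether the numbers mark pairs. With the replicate block 0 members and 0 genes passed, the median of the members was 0.16 and Pole2 stood at 0.027. Counts limit the members of lowest level, whose counting error alone reached a coefficient of variation of 17.2%.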
